A study of Homo sapiens with 10 samples.

Results

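The genes of the G1/S transition and of DNA replication were followed after silencing of Che-1, the protein encoded by AATF, in human breast cancer cells. The set held 48 genes of the 18417 that the array represented by a probe set with a single gene symbol. It was made from the probe sets annotated to a fixed list of names of genes with these roles, with the probe set of highest mean kept for each gene; the rule uses no measured change, although the list was drawn up with earlier results of these data known. Each of the 48 had exactly 1 such probe set, and all 48 passed the filter on dim genes. Total RNA was measured on whole-transcript arrays in SKBR3, which is ERBB2-amplified, and in the basal-like line MDA-468. The labels describe both as breast cancer cells that express mutant p53, so no group represents cells with normal p53. In each line, cells were transfected with double-stranded RNA oligos, either siControl or siChe-1 (directed against Che-1), and harvested after 48 h. SKBR3 gave 2 siControl and 2 siChe-1 arrays, and MDA-468 gave 3 of each. Only 1 reagent against AATF is named, and the labels do not say that replicates came from separate cultures, so p-values reflect only the spread among these arrays, part or all of which may be technical. These are bulk samples, in which fewer cells in a cell cycle phase and less RNA per cell cannot be told apart.

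Entry into S phase is driven by D-type cyclins with CDK4 and CDK6 and by E-type cyclins with CDK2, which phosphorylate RB family proteins and release E2F factors. The E2F factors then drive transcription of many genes of DNA synthesis. Before S phase, the origin recognition complex, CDC6 and CDT1 load the MCM2 to MCM7 helicase onto DNA. CDC45 and the GINS complex complete the active helicase, DNA polymerases alpha, delta and epsilon copy the strands, and the PCNA clamp with its loader, replication factor C, holds polymerases on DNA. Ribonucleotide reductase, thymidylate synthase and thymidine kinase supply deoxynucleotides.

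Values are the deposited log2 expression values, changes are siChe-1 minus siControl on that scale with the standard error (SE) of a limma fit over all 10 arrays, and a gene is called changed where its Benjamini-Hochberg adjusted p over 12892 tested genes is below 0.05. AATF fell in both lines. It fell by 0.66 ± 0.10 (SE; 2 against 2 arrays) in SKBR3 (adjusted p = 0.000778) and fell by 1.71 ± 0.08 (3 against 3 arrays) in MDA-468 (adjusted p = 2.16e-08, limma). The fall was larger in MDA-468 (difference 1.05, adjusted p = 0.000215). For the genes that define the lines, SKBR3 arrays read 12.15 to 12.40 for ERBB2 and 7.91 to 8.19 for EGFR, and MDA-468 arrays read 7.91 to 8.40 for ERBB2 and 12.20 to 13.07 for EGFR. GRB7 and STARD3, neighbours of ERBB2, were also higher on every SKBR3 array than on any MDA-468 array. The luminal markers did not all follow. GATA3 read 6.27 to 6.61 in SKBR3 and 9.11 to 9.35 in MDA-468. The siControl means of FOXA1 (9.08 and 9.09) and KRT19 (12.93 and 12.98) were close in the 2 lines. Of the basal-like list, 3 of 6 genes were measured. KRT5 read 7.52 to 7.87 in SKBR3 and 12.34 to 13.31 in MDA-468. With siControl, KRT14 read 7.5 to 7.54 in SKBR3 and 7.87 to 8.28 in MDA-468, where it read 9.96 to 10.14 with siChe-1. Of the 4 epithelial markers, CDH1 read 4.84 to 5.26 in SKBR3 and 9.78 to 10.24 in MDA-468. CDH1 and CLDN4 were called lower in MDA-468, and none of the 4 was called in SKBR3. Array medians were 6.36 to 6.45 in SKBR3 and 6.87 to 6.94 in MDA-468, so a small gap in level between the lines cannot be read. All 4 endothelial markers had a mean over all arrays below the filter level of 6.03, and so did DCN, LUM and PDGFRB of the 5 fibroblast markers. In MDA-468, however, KDR read 6.45 to 6.73 with siControl and 7.08 to 7.17 with siChe-1. The summed log2 value of the endothelial list ran from 19.36 to 20.61 with siControl and from 18.84 to 20.45 with siChe-1 in SKBR3. In MDA-468 the endothelial sum ran from 22.69 to 22.91 and from 23.47 to 24.13. COL3A1 was tested and called in neither line, COL1A1 was called higher in MDA-468 (0.34, adjusted p = 0.0195), and the summed log2 value of the fibroblast list ran from 24.72 to 25.32 with siControl and from 24.71 to 25.61 with siChe-1 in SKBR3, and from 26.22 to 26.52 and from 26.79 to 27.40 in MDA-468; the part of other cells in the changes below was not tested. Of the leukocyte list, 5 of 6 genes were measured, and the defining marker PTPRC lay between 3.18 and 4.17 on all arrays. CD68 and CD14 were called higher in both lines. The CD14 group means in SKBR3, 5.42 and 5.94, lay below the filter level, while MDA-468 arrays read 9.48 to 10.27 for CD14. The summed log2 value of the list went from 23.47 to 24.39 with siControl to 26.02 to 26.76 with siChe-1 in SKBR3. In MDA-468 it went from 28.47 to 29.04 to 29.40 to 30.06. RB1, the founding RB family member, read 8.48 to 9.04 in SKBR3 and 3.61 to 3.78 in MDA-468. Its mean over all arrays was below the filter level, so RB1 was not tested. Along with AATF, the interferon-stimulated gene IFIT1 went from 4.64 to 4.90 with siControl to 12.67 to 12.88 with siChe-1 in SKBR3, and from 5.35 to 5.63 to 12.98 to 13.14 in MDA-468. Its siControl values lay below the filter level, so no size of the rise is given, and the part of an interferon response in the changes below was not tested. Of 6 CDK inhibitor genes measured, 2 rose in SKBR3 and 3 in MDA-468, beside 6.64% and 16.4% of all tested genes, and none fell. CDKN1A, which encodes the CDK inhibitor p21, rose by 1.12 and 1.19 (adjusted p = 2.62e-06 and 1.33e-07). CDKN2B, which encodes the CDK4 and CDK6 inhibitor p15, rose by 0.55 and 0.68 (adjusted p = 0.00373 and 6.13e-05). CDKN2A rose in MDA-468 alone by call (0.41, adjusted p = 0.00222), CDKN1B changed by -0.39 and -0.08 (adjusted p = 0.109 and 0.691), and CDKN1C and CDKN2D were not called. Of 6 general proliferation genes, 6 fell in SKBR3 and 5 in MDA-468, beside 17.1% and 27.0% of all tested genes. The list was chosen with earlier results of these data known. MKI67 fell by 0.53 and 0.35 (adjusted p = 0.00278 and 0.00342, limma). The part of fewer cycling cells in the changes below was not tested.

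In SKBR3, 9 of the 48 genes fell: CDK4, ORC2, RFC3, RFC4, RFC5, POLE2, RRM1, RRM2 and TYMS. That is 18.8% of the set, beside 17.1% of all tested genes called lower in that line. A single gene rose, CCND1, which is 2.08% of the set beside 6.64% of all tested genes. In MDA-468, 14 genes fell: CCNE1, CDK4, E2F3, CDC6, MCM2, MCM6, GINS4, RFC2, RFC4, UNG, CHAF1B, RRM1, RRM2 and TYMS. That is 29.2% of the set, beside 27.0% of all tested genes. The 7 genes that rose in MDA-468, namely CCND3, CDK6, CDC25A, ORC6, POLA2, POLE and CHAF1A, make 14.6% of the set beside 16.4% of all tested genes. These shares lie near the background, so the number of changes is not a result about the set, and the description turns on which genes changed. The median change was -0.13 in SKBR3 and -0.08 in MDA-468, where the medians over all tested genes were -0.08 and -0.02. In SKBR3, 23 of the 48 genes had all siChe-1 arrays below all siControl arrays and 5 of the 48 had them above, beside 37.8% and 14.5% of all tested genes. The counts in MDA-468 were 22 below and 9 above, beside 36.0% and 23.9% of all tested genes. The remaining 20 genes in SKBR3 and 17 in MDA-468 had overlapping groups. Groups of 2 against 2 arrays separate more easily than groups of 3 against 3, so a lack of overlap says less in SKBR3.

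**Figure D1:**
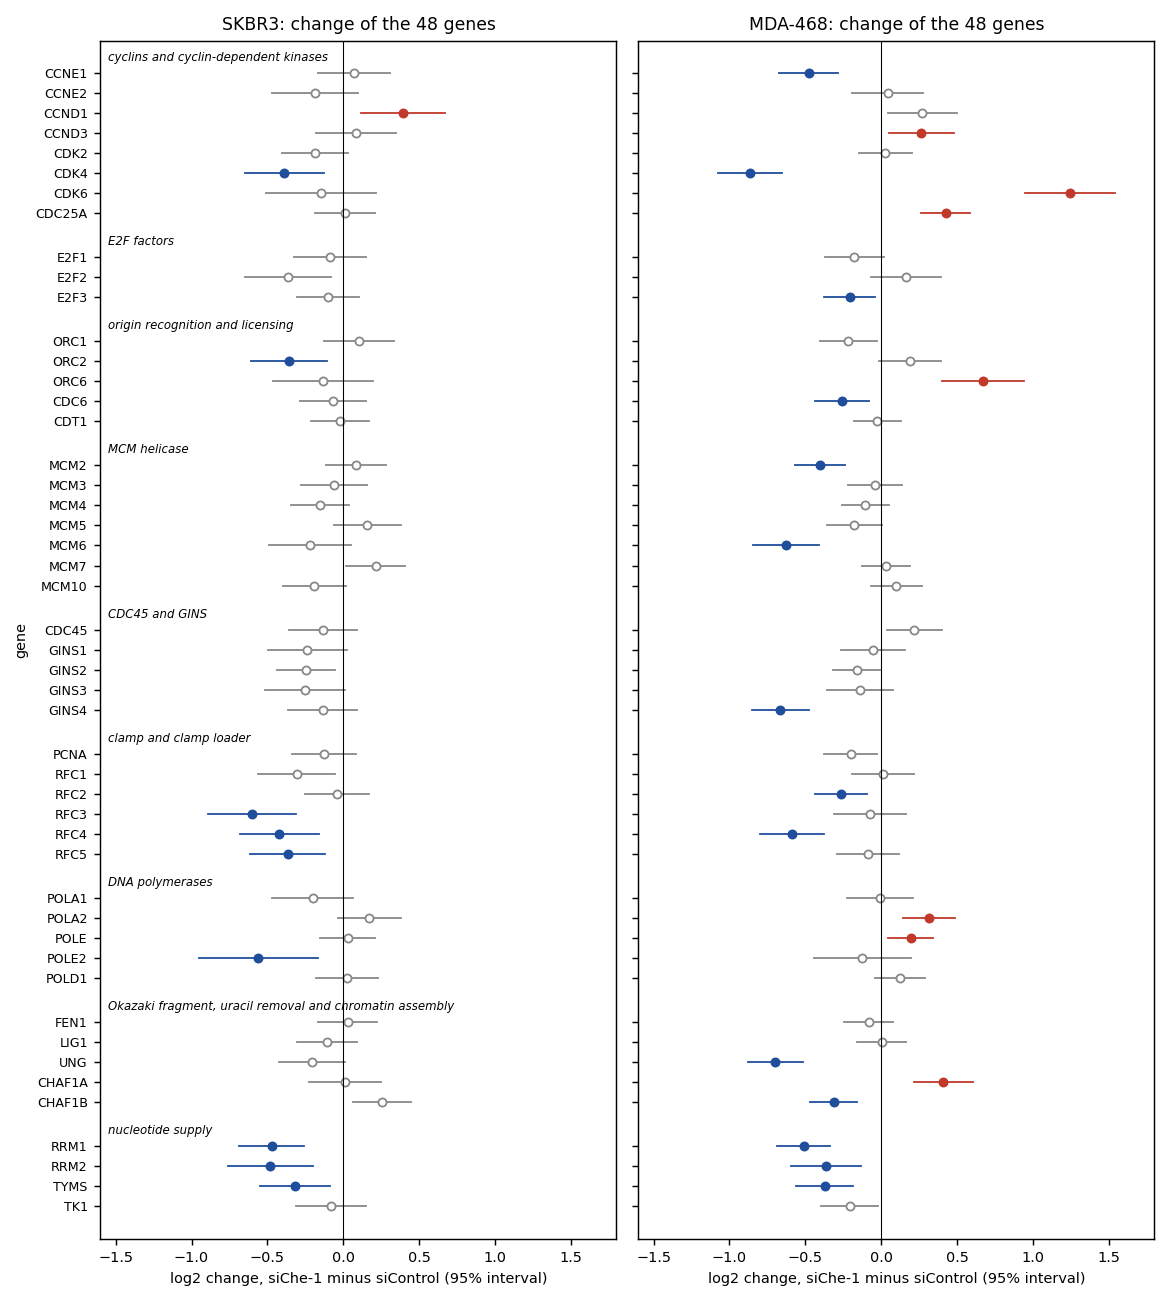
Change of each of the 48 genes (log2, siChe-1 minus siControl, x axis) with its 95% confidence interval, by role (y axis), for SKBR3 (left) and MDA-468 (right). Filled points passed the adjusted p threshold of 0.05, blue for lower and red for higher: 9 and 1 in SKBR3, 14 and 7 in MDA-468, with CDK6 in MDA-468 farthest to the right and CDK4 in MDA-468 farthest to the left.

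The genes lower in both lines were CDK4, RFC4, RRM1, RRM2 and TYMS, which is 10.4% of the set beside 9.32% of all tested genes. They make up 55.6% of the 9 genes that fell in SKBR3 and 35.7% of the 14 that fell in MDA-468. Over all tested genes, 1201 fell in both lines, of 2201 that fell in SKBR3 and 3483 that fell in MDA-468. The overlap lies near that background, so it is not a result about the set. No gene of the set rose in both lines and none was called in opposite directions. These last counts are given without a share over all tested genes. Of the 5, RRM1, RRM2 and TYMS belong to the 4 genes of nucleotide supply, whose remaining member is TK1.

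RRM1 encodes the large subunit of ribonucleotide reductase, the enzyme that makes deoxynucleotides from ribonucleotides. It read 10.59 and 10.68 on the SKBR3 siControl arrays and 10.27 and 10.06 with siChe-1. In MDA-468 it read 10.55, 10.55 and 10.48 with siControl and 9.95, 10.08 and 10.02 with siChe-1. Every siChe-1 array lay below every siControl array of its line. RRM1 fell by 0.47 ± 0.10 in SKBR3, to 72.2% of control (adjusted p = 0.00632), and by 0.51 ± 0.08 in MDA-468, to 70.3% (adjusted p = 0.000339, limma). The small subunit of the same enzyme is encoded by RRM2, whose SKBR3 values were 9.39 and 9.55 with siControl and 9.17 and 8.82 with siChe-1. Its MDA-468 values were 10.25, 10.14 and 10.24 with siControl and 9.73, 9.97 and 9.85 with siChe-1. The groups did not overlap in either line. RRM2 fell by 0.48 ± 0.13 in SKBR3 (adjusted p = 0.0199) and by 0.36 ± 0.10 in MDA-468 (adjusted p = 0.0144), and the difference between these falls had a 95% interval from -0.48 to 0.24. The SKBR3 call was lost without siControl replicate 2 or siChe-1 replicate 2 (adjusted p up to 0.137, change -0.66 to -0.30 over the 10 fits without an array), and the MDA-468 call without siControl replicate 1 or siChe-1 replicate 1 (adjusted p up to 0.0599).

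TYMS encodes thymidylate synthase, which makes dTMP from dUMP. It read 10.24 and 10.36 with siControl and 10.11 and 9.85 with siChe-1 in SKBR3, and 11.80, 11.82 and 11.71 against 11.44, 11.43 and 11.35 in MDA-468. All siChe-1 arrays were again the lower ones. The fall was 0.32 ± 0.10 in SKBR3 (adjusted p = 0.047) and 0.37 ± 0.09 in MDA-468 (adjusted p = 0.00442, limma). TYMS lost its call in SKBR3 in 9 of the 10 fits that left out a single array, where its adjusted p reached 0.249. TK1, the thymidine kinase of the salvage route, changed by -0.08 ± 0.10 in SKBR3 and by -0.21 ± 0.08 in MDA-468 (adjusted p = 0.633 and 0.0703). In MDA-468 its groups did not overlap either, with siControl arrays at 9.72, 9.78 and 9.65 and siChe-1 arrays at 9.58, 9.54 and 9.40.

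CDK4 encodes a kinase partner of the D-type cyclins. Its SKBR3 arrays read 10.11 and 9.97 with siControl and 9.81 and 9.49 with siChe-1. The MDA-468 arrays read 10.16, 10.09 and 10.19 with siControl and 9.34, 9.33 and 9.18 with siChe-1. The siChe-1 arrays were lower in both lines, with a wider gap in MDA-468. CDK4 fell by 0.39 ± 0.12 in SKBR3, to 76.4% of control (adjusted p = 0.0348), and by 0.86 ± 0.10 in MDA-468, to 55.0% (adjusted p = 2.84e-05). The SKBR3 call was lost in 7 of the 10 fits that left out a single array (adjusted p up to 0.206), where the change ran from -0.55 to -0.23; the MDA-468 call held in all 10. The difference between these falls was 0.48 ± 0.15 (adjusted p = 0.0497, limma) and lost its call in 9 of the 10 fits that left out a single array and when each array was centred on its median.

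RFC4 is a subunit of replication factor C, which opens the PCNA ring and places it on DNA. In SKBR3 it read 9.95 and 10.07 with siControl and 9.75 and 9.43 with siChe-1. In MDA-468 it read 10.09, 10.12 and 9.94 with siControl and 9.42, 9.53 and 9.45 with siChe-1. No siChe-1 array reached the level of a siControl array of its line. The fall was 0.42 ± 0.12 in SKBR3 (adjusted p = 0.0247) and 0.59 ± 0.10 in MDA-468, to 66.6% of control (adjusted p = 0.000475, limma). In SKBR3 the call was lost in 3 of the 10 fits without an array, those without siControl replicate 1, siControl replicate 2 or siChe-1 replicate 2 (adjusted p up to 0.153), and the change ran from -0.58 to -0.26.

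**Figure D2:**
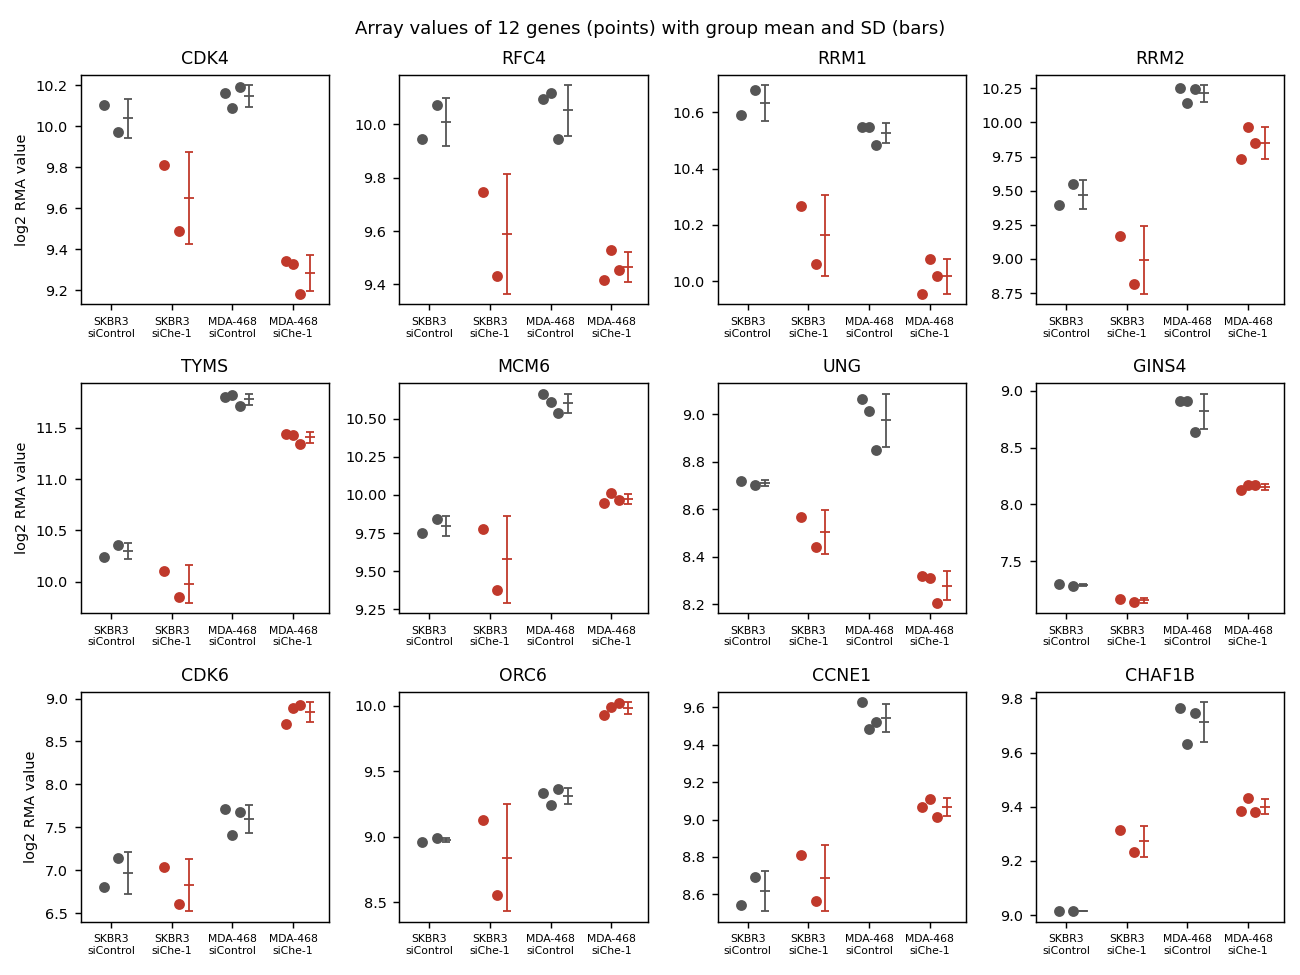
Log2 expression value (y axis) of CDK4, RFC4, RRM1, RRM2, TYMS, MCM6, UNG, GINS4, CDK6, ORC6, CCNE1 and CHAF1B on each array, by line and treatment (x axis); points are arrays and bars are the group mean ± SD (n = 2 in SKBR3, n = 3 in MDA-468). In MDA-468 the siControl and siChe-1 arrays do not overlap in any of these 12 genes, and in SKBR3 they overlap in CCNE1, CDK6, ORC6 and MCM6.

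Many genes of this set are textbook E2F targets, so the sequence before their start sites was read for E2F motifs. RefSeq (GRCh38.p14) promoter windows of 300 bases, from 250 before to 50 after the start, were matched by symbol for 42 of the 48 genes. The motif was any of TTTCCCGC, TTTCGCGC, TTTGCCGC and TTTGGCGC on either strand. It occurred in 21 of the 42 windows (50%), against 3.3% of all 27305 windows. The CCAAT box (CCAAT on either strand) occurred in 23 of the 42 (54.8%), against 35.7% of all windows. Windows with the E2F letters belonged to 1 of the 5 genes lower in both lines (TYMS), 3 of 9 lower in SKBR3 (RFC3, POLE2 and TYMS), 5 of 13 matched genes lower in MDA-468 (E2F3, CDC6, MCM2, MCM6 and TYMS) and 3 of 7 higher there (CDC25A, POLA2 and POLE). Among the matched genes called in neither line, 11 of 18 held them. Genes that fell, rose and were not called thus all included windows with the motif, and a match is a description of letters, not a site in use. The 250 bases before the start are shown for a gene lower in both lines (TYMS), the MCM gene with the largest fall (MCM6), and 2 genes that rose in MDA-468 (CDC25A and POLA2), each 5′ to 3′ on the strand of its gene with the E2F letters in capitals.
TYMS (chr18:657403-657652, plus strand): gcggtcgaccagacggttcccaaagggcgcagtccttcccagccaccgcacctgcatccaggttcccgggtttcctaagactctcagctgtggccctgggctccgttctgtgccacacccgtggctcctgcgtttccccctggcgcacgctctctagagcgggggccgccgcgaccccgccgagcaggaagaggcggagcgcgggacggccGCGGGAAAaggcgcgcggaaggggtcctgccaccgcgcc
MCM6 (chr2:135876444-135876693, minus strand): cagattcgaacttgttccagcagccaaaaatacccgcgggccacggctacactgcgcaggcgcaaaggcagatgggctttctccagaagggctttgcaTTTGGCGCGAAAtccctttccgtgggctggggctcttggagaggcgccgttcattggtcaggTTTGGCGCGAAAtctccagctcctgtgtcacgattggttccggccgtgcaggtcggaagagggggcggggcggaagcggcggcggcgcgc
CDC25A (chr3:48188418-48188667, minus strand): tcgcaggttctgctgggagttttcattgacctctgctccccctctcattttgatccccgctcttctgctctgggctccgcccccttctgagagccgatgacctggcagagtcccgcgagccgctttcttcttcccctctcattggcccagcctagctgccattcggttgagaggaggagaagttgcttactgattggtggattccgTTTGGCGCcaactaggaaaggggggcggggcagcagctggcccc
POLA2 (chr11:65261712-65261961, plus strand): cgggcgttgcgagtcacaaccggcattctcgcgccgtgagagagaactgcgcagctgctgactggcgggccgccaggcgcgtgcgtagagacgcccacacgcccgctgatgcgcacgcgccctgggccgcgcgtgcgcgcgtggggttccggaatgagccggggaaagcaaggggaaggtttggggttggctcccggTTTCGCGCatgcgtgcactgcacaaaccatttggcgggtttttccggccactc
In MCM6 the 4 matches form 2 pairs that overlap on opposite strands and begin 152, 148, 90 and 86 bases before the start. The single matches begin 39 bases before the start in TYMS, 44 in CDC25A and 53 in POLA2.

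Among the 8 cyclins, cyclin-dependent kinases and their activating phosphatase, the counts were 1 lower and 1 higher in SKBR3, and 2 lower and 3 higher in MDA-468. CDK6, the other kinase partner of D-type cyclins, had the largest rise of the 48 genes in MDA-468, opposite in sign to CDK4. Its MDA-468 arrays read 7.71, 7.41 and 7.67 with siControl and 8.71, 8.89 and 8.93 with siChe-1. In SKBR3 it read 6.80 and 7.14 with siControl and 7.04 and 6.61 with siChe-1. The MDA-468 groups were far apart and the SKBR3 groups overlapped. CDK6 rose by 1.24 ± 0.13 in MDA-468, to 237% of control (adjusted p = 2.41e-05), and changed by -0.15 ± 0.16 in SKBR3 (adjusted p = 0.576, limma).

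CCNE1 encodes cyclin E1, a partner of CDK2. On MDA-468 arrays it read 9.63, 9.48 and 9.52 with siControl and 9.07, 9.11 and 9.02 with siChe-1, and on SKBR3 arrays 8.54 and 8.69 against 8.81 and 8.56. The groups separated in MDA-468 and overlapped in SKBR3. It fell by 0.48 ± 0.09 in MDA-468, to 71.8% of control (adjusted p = 0.00106), and its change in SKBR3 was above 0, at 0.07 ± 0.11 (adjusted p = 0.695). CCNE2, which encodes the second E-type cyclin, changed by -0.18 ± 0.13 and 0.04 ± 0.10 (adjusted p = 0.342 and 0.787), and CDK2 by -0.19 ± 0.10 and 0.03 ± 0.08 (adjusted p = 0.2 and 0.82). CDC25A, the phosphatase that activates CDK2, read 8.37, 8.23 and 8.23 with siControl and 8.71, 8.69 and 8.71 with siChe-1 in MDA-468, where every siChe-1 array was higher. It rose there by 0.43 ± 0.07 (adjusted p = 0.000698). In SKBR3 the CDC25A arrays overlapped, at 8.37 and 8.29 against 8.38 and 8.30.

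CCND1 encodes cyclin D1, and it was the gene that rose in SKBR3. Its arrays read 8.90 and 8.79 with siControl and 9.07 and 9.40 with siChe-1 there, and 9.27, 9.14 and 9.34 against 9.62, 9.55 and 9.40 in MDA-468. The siChe-1 arrays were the higher ones in both lines. The rise in SKBR3 was 0.39 ± 0.13 (adjusted p = 0.0435), which lost its call in 8 of the 10 fits without a single array (adjusted p up to 0.258), and the change in MDA-468 was 0.27 ± 0.10 (adjusted p = 0.0522, limma). CCND3, which encodes cyclin D3, read 8.36, 8.33 and 8.48 with siControl and 8.78, 8.64 and 8.55 with siChe-1 in MDA-468. It rose there by 0.26 ± 0.10 (adjusted p = 0.047), a call lost in 5 of the 10 fits without an array (adjusted p up to 0.169) and with arrays centred on their medians. In SKBR3 CCND3 overlapped, at 8.42 and 8.22 against 8.52 and 8.28.

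Of the 3 activating E2F factors, none was called in SKBR3 by limma, where 1 had an unadjusted p below 0.05, and E2F3 fell in MDA-468. E2F3 read 8.98, 8.82 and 8.91 with siControl and 8.64, 8.68 and 8.77 with siChe-1 in MDA-468, and 7.75 and 7.66 against 7.61 and 7.60 in SKBR3. It fell by 0.21 ± 0.08 in MDA-468 (adjusted p = 0.0446), a call lost in 6 of the 10 fits without an array (adjusted p up to 0.172), and changed by -0.10 ± 0.09 in SKBR3 (adjusted p = 0.494, limma). E2F1 changed by -0.09 ± 0.11 in SKBR3 and -0.18 ± 0.09 in MDA-468 (adjusted p = 0.61 and 0.132). E2F2 was called in neither line: it read 7.0 and 7.01 against 6.53 and 6.76 in SKBR3 and 8.27, 7.96 and 8.18 against 8.45, 8.22 and 8.23 in MDA-468. Its changes of -0.36 ± 0.13 and 0.16 ± 0.10 (adjusted p = 0.0624 and 0.242) differed from each other by -0.53 ± 0.17 (adjusted p = 0.0474), a call lost in 8 of the 10 fits without an array.

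Of the 5 genes of origin recognition and licensing, ORC2 fell in SKBR3, while CDC6 fell and ORC6 rose in MDA-468. ORC2 and ORC6 are subunits of the origin recognition complex. ORC6 read 9.33, 9.24 and 9.36 with siControl and 9.93, 9.99 and 10.02 with siChe-1 in MDA-468, and 8.96 and 8.99 against 9.13 and 8.55 in SKBR3. The MDA-468 groups were apart, and the SKBR3 siChe-1 arrays lay on either side of the siControl arrays. ORC6 rose by 0.67 ± 0.12 in MDA-468, to 159% of control (adjusted p = 0.00106), and changed by -0.13 ± 0.15 in SKBR3 (adjusted p = 0.58, limma). ORC2 read 8.84 and 8.93 with siControl and 8.63 and 8.43 with siChe-1 in SKBR3, and 9.14, 9.0 and 9.05 against 9.11, 9.27 and 9.38 in MDA-468. It fell by 0.36 ± 0.11 in SKBR3 (adjusted p = 0.0414), a call lost in 7 of the 10 fits without an array (adjusted p up to 0.201), and changed by 0.19 ± 0.09 in MDA-468 (adjusted p = 0.122). CDC6, an ATPase that helps load the MCM helicase, read 10.53, 10.40 and 10.43 against 10.14, 10.21 and 10.23 in MDA-468 and 11.78 and 11.83 against 11.85 and 11.62 in SKBR3. It fell by 0.26 ± 0.08 in MDA-468 (adjusted p = 0.0221, up to 0.0978 without an array). ORC1 changed by 0.10 ± 0.11 and -0.22 ± 0.09 (adjusted p = 0.539 and 0.0635), and CDT1 by -0.02 ± 0.09 and -0.02 ± 0.07 (adjusted p = 0.878 and 0.814).

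None of the 7 MCM genes was called in SKBR3 by limma, where 1 had an unadjusted p below 0.05, and 2 fell in MDA-468. MCM6 and MCM2 are subunits of the same hexameric helicase. MCM6 read 10.66, 10.61 and 10.53 with siControl and 9.94, 10.01 and 9.96 with siChe-1 in MDA-468, with no overlap. The SKBR3 arrays read 9.75 and 9.84 against 9.78 and 9.38, and overlapped. MCM6 fell by 0.63 ± 0.10 in MDA-468, to 64.7% of control (adjusted p = 0.000377), and changed by -0.22 ± 0.12 in SKBR3 (adjusted p = 0.224), with a difference between lines of 0.41 ± 0.16 that was not called (adjusted p = 0.0962). MCM2 read 9.20, 9.19 and 9.17 with siControl and 8.80, 8.82 and 8.73 with siChe-1 in MDA-468, and 9.09 and 8.91 against 9.07 and 9.10 in SKBR3. It fell by 0.40 ± 0.07 in MDA-468 (adjusted p = 0.00103), and its change in SKBR3 was above 0, at 0.08 ± 0.09 (adjusted p = 0.559, limma). The other subunits, MCM3, MCM4, MCM5 and MCM7, and MCM10, a separate initiation factor, had changes between -0.19 (MCM10) and 0.21 (MCM7) in SKBR3 and between -0.18 (MCM5) and 0.10 (MCM10) in MDA-468, with no call. Subunits of this hexamer thus had unequal changes in MDA-468: the 95% interval ran from -0.85 to -0.41 for MCM6 and from -0.12 to 0.19 for MCM7.

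CDC45 and GINS1 to GINS4 join MCM2 to MCM7 in the active helicase. All 5 had every siChe-1 array below every siControl array in SKBR3, as did 37.8% of all tested genes. None of the 5 was called there by limma, and 1 had an unadjusted p below 0.05. Their SKBR3 changes lay between -0.25 (GINS3) and -0.13 (CDC45). In MDA-468 GINS4 fell and the others were not called. GINS4 read 8.91, 8.91 and 8.64 with siControl and 8.13, 8.17 and 8.17 with siChe-1 in MDA-468, and 7.30 and 7.29 against 7.17 and 7.14 in SKBR3. It fell by 0.66 ± 0.09 in MDA-468, to 63.1% of control (adjusted p = 8.42e-05), and changed by -0.14 ± 0.10 in SKBR3 (adjusted p = 0.388). The other subunits of this tetramer in MDA-468 had changes of -0.05 ± 0.10 (GINS1), -0.16 ± 0.07 (GINS2) and -0.14 ± 0.10 (GINS3), with adjusted p = 0.69, 0.09 and 0.282 (limma). CDC45 changed by 0.22 ± 0.08 there, with siChe-1 arrays at 9.71, 9.78 and 9.61 above siControl arrays at 9.51, 9.35 and 9.58 (adjusted p = 0.053).

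Of the 6 genes of the clamp and its loader, RFC3, RFC4 and RFC5 fell in SKBR3, and RFC2 and RFC4 fell in MDA-468. RFC3 had the largest fall of the 48 genes in SKBR3. It read 10.36 and 10.39 with siControl and 10.01 and 9.53 with siChe-1 there, and 11.02, 10.97 and 11.03 against 10.89, 10.98 and 10.93 in MDA-468. The fall was 0.60 ± 0.13 in SKBR3, to 65.8% of control (adjusted p = 0.00827), and the change in MDA-468 was -0.07 ± 0.11 (adjusted p = 0.624). The difference between lines, -0.53 ± 0.17, missed the threshold (adjusted p = 0.0509, limma). RFC5 read 8.12 and 8.08 against 7.91 and 7.55 in SKBR3 and 9.11, 9.03 and 9.08 against 8.99, 9.03 and 8.95 in MDA-468. It fell by 0.37 ± 0.11 in SKBR3 (adjusted p = 0.0373, a call lost in 8 of the 10 fits without an array, with adjusted p up to 0.212) and changed by -0.09 ± 0.09 in MDA-468. RFC2 read 10.10, 10.07 and 9.93 with siControl and 9.79, 9.80 and 9.70 with siChe-1 in MDA-468, and 10.26 and 10.18 against 10.23 and 10.12 in SKBR3. It fell by 0.27 ± 0.08 in MDA-468 (adjusted p = 0.0173, up to 0.0803 without an array) and changed by -0.04 ± 0.10 in SKBR3. RFC1, the large subunit, changed by -0.31 ± 0.11 in SKBR3 (adjusted p = 0.0754) and 0.01 ± 0.09 in MDA-468 (adjusted p = 0.943). The clamp itself, PCNA, was called in neither line, with changes of -0.13 ± 0.10 and -0.20 ± 0.08 (adjusted p = 0.383 and 0.0582) and with all siChe-1 arrays below all siControl arrays of each line.

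Of the 5 DNA polymerase genes, POLE2 fell in SKBR3 and POLA2 and POLE rose in MDA-468. POLA2, the accessory subunit of the polymerase alpha and primase complex, read 9.85, 9.81 and 9.76 with siControl and 10.14, 10.09 and 10.12 with siChe-1 in MDA-468, and 9.15 and 9.15 against 9.43 and 9.21 in SKBR3. Every siChe-1 array was above the siControl arrays in both lines. The rise was 0.31 ± 0.08 in MDA-468 (adjusted p = 0.00648), and the change in SKBR3 was 0.17 ± 0.09 (adjusted p = 0.223, limma). POLE, the catalytic subunit of polymerase epsilon, read 8.65, 8.60 and 8.65 against 8.80, 8.81 and 8.87 in MDA-468 and 9.04 and 9.02 against 9.03 and 9.09 in SKBR3. It rose by 0.20 ± 0.07 in MDA-468 (adjusted p = 0.0348), a call lost in 6 of the 10 fits without an array (adjusted p up to 0.116) and with arrays centred on their medians. POLE2, the second subunit of polymerase epsilon, read 8.03 and 8.18 against 7.76 and 7.33 in SKBR3 and 7.75, 7.44 and 7.28 against 7.24, 7.29 and 7.57 in MDA-468. It fell by 0.56 ± 0.18 in SKBR3 (adjusted p = 0.0433, up to 0.271 without an array) and its MDA-468 groups overlapped. POLA1, the catalytic subunit of polymerase alpha, and POLD1, that of polymerase delta, were called in neither line, with changes of -0.20 ± 0.12 and 0.02 ± 0.09 in SKBR3 and -0.01 ± 0.10 and 0.12 ± 0.07 in MDA-468.

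FEN1 and LIG1, the flap nuclease and the ligase that finish Okazaki fragments, had changes between -0.11 and 0.03 in both lines and were not called. UNG, which removes uracil from DNA, read 9.06, 9.01 and 8.85 with siControl and 8.32, 8.31 and 8.21 with siChe-1 in MDA-468, and 8.72 and 8.70 against 8.57 and 8.44 in SKBR3. The siChe-1 arrays were lower in both lines, by more in MDA-468. UNG fell by 0.70 ± 0.08 in MDA-468, to 61.7% of control (adjusted p = 4.2e-05), and changed by -0.21 ± 0.10 in SKBR3 (adjusted p = 0.163, limma).

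CHAF1A and CHAF1B encode subunits of chromatin assembly factor 1, which places histones on newly made DNA, and they had opposite changes in MDA-468. CHAF1A read 9.16, 8.96 and 9.17 with siControl and 9.57, 9.56 and 9.40 with siChe-1 in MDA-468, and 8.79 and 8.64 against 8.72 and 8.73 in SKBR3. CHAF1B read 9.76, 9.63 and 9.75 against 9.39, 9.43 and 9.38 in MDA-468 and 9.02 and 9.02 against 9.31 and 9.23 in SKBR3. For CHAF1A the MDA-468 siChe-1 arrays were the higher ones and the SKBR3 groups overlapped; for CHAF1B they were lower in MDA-468 and higher in SKBR3. CHAF1A rose by 0.41 ± 0.09 (adjusted p = 0.00277) and CHAF1B fell by 0.31 ± 0.07 (adjusted p = 0.00406) in MDA-468. In SKBR3 the changes were 0.01 ± 0.11 (adjusted p = 0.952) and 0.26 ± 0.09 (adjusted p = 0.055, limma).

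The change differed between the lines for 11 of the 48 genes, which is 22.9% of the set beside 19.2% of all tested genes. The change in MDA-468 was subtracted from that in SKBR3, and this difference was tested in the same limma fit. It was negative for CDK6, CDC25A, E2F2, ORC2 and ORC6 and positive for CCNE1, CDK4, MCM2, GINS4, UNG and CHAF1B. CDK6 differed most, by -1.39 ± 0.21 (adjusted p = 0.00122), followed by ORC6, by -0.80 ± 0.19 (adjusted p = 0.0154). Both of these rose in MDA-468 and were not called in SKBR3. CHAF1B differed by 0.57 ± 0.11 (adjusted p = 0.00548), and CCNE1 by 0.55 ± 0.14 (adjusted p = 0.0193). For CCNE1, CDK4, MCM2, GINS4, UNG and CHAF1B the positive value went with a fall in MDA-468. AATF itself fell by more in MDA-468, and the part of that larger fall in these differences was not tested. For RRM1 and TYMS the lines differed by 0.04 (95% interval -0.24 to 0.32) and 0.05 (-0.25 to 0.35). Leaving out a single array changed the count of 11 to 3 without SKBR3 siControl replicate 2, 5 without SKBR3 siControl replicate 1 or MDA-468 siControl replicate 2, 6 without MDA-468 siChe-1 replicate 3 and 7 without MDA-468 siControl replicate 1 or 3 or siChe-1 replicate 2.

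**Figure D3:**
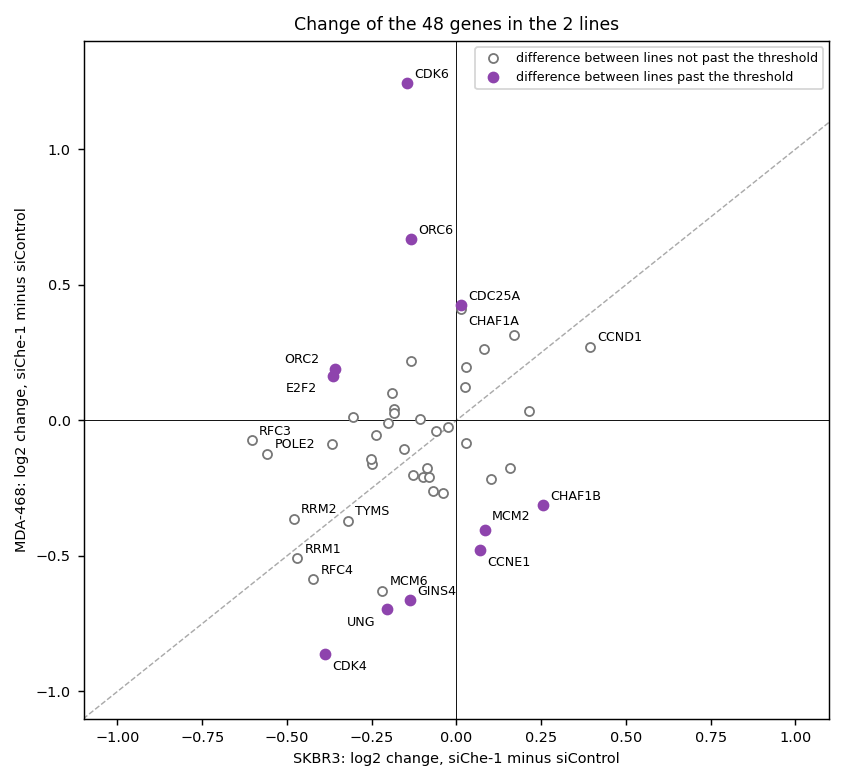
Change in SKBR3 (x axis, log2) against the change in MDA-468 (y axis, log2) for each of the 48 genes; filled purple points are the 11 genes whose change differed between the lines, and the dashed line marks equal changes. CDK4, RFC4, RRM1, RRM2 and TYMS lie in the lower left as lower in both, and CDK6 and ORC6 lie high on the MDA-468 axis with SKBR3 changes of -0.15 and -0.13.

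The SKBR3 result rested on few arrays that were not alike. The 2 siChe-1 arrays correlated with r = 0.978 over all tested genes, against 0.990 to 0.996 for the other replicate pairs. Replicate 2 read lower than replicate 1 in 41 of the 48 genes, with a median difference of -0.15, beside 59.3% of all tested genes and a median of -0.08. Such a shift was not particular to these arrays. In MDA-468, siControl replicate 2 also read lower than replicate 1 in 40 of the 48 genes, beside 60.3% of all tested genes. The median difference there was smaller, at -0.07, beside -0.03 over all tested genes. Against the SKBR3 siControl mean, the median of the 48 genes was -0.05 on siChe-1 replicate 1 and -0.18 on replicate 2. The 9 genes that fell became 18 without siChe-1 replicate 1, 3 without siChe-1 replicate 2, 3 without siControl replicate 1 and 0 without siControl replicate 2, where 8 had an unadjusted p below 0.05 (limma). Leaving out an MDA-468 array, which only changes the shared spread, gave 4 without siControl replicate 2 or siChe-1 replicate 2, 5 without siControl replicate 1 or 3, 6 without siChe-1 replicate 1 and 8 without siChe-1 replicate 3. RFC3 and RRM1 lost the call in 1 of these 10 fits each, without SKBR3 siControl replicate 2 (adjusted p = 0.0568 and 0.0553). In MDA-468 the count of 14 lower ran from 10 to 17 and that of 7 higher from 5 to 9.

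**Figure D4:**
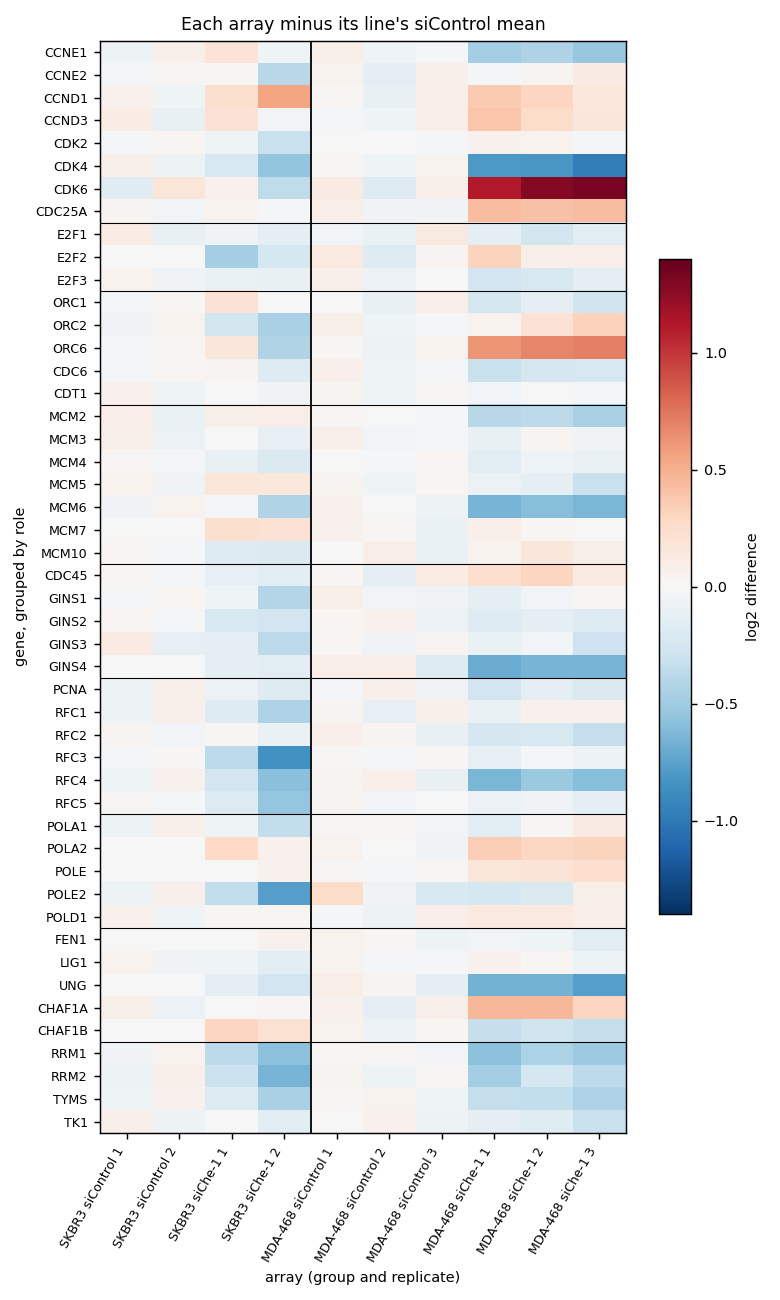
Log2 value of each of the 48 genes (rows, by role) on each array (columns) minus the siControl mean of its line, coloured from blue (lower) to red (higher). In SKBR3, siChe-1 replicate 2 is bluer than replicate 1, with medians of -0.18 and -0.05, while the 3 MDA-468 siChe-1 arrays resemble each other and show CDK6 and ORC6 in red.

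Beyond the 48, a list of 76 further G1/S and replication genes was examined, of which 73 were tested. This list too was chosen with earlier results of these data known. How its calls depend on single arrays is not reported here, and its SKBR3 calls rest on the same 2 against 2 arrays. In SKBR3, 21 fell (28.8%, beside 17.1% of all tested genes) and 2 rose (2.74% beside 6.64%), with a median change of -0.25 beside -0.08 over all tested genes. In MDA-468, 25 fell (34.2% beside 27.0%) and 12 rose (16.4%, the same share as over all tested genes), with a median of -0.12 beside -0.02. The largest falls in SKBR3 were those of TOP2A, which encodes DNA topoisomerase II alpha, by 0.87 ± 0.11 (adjusted p = 0.000356), the histone chaperone ASF1A, by 0.80 ± 0.18 (adjusted p = 0.00857), and DSCC1, part of an alternative clamp loader, by 0.78 ± 0.19 (adjusted p = 0.0151). In MDA-468 they were those of CCNA2, which encodes the S-phase cyclin A2, by 0.83 ± 0.09 (adjusted p = 2.55e-05), the E2F family member E2F5, by 0.82 ± 0.10 (adjusted p = 4.32e-05; its SKBR3 means of 4.26 and 4.32 lay below the filter level), and the dCMP deaminase DCTD, by 0.78 ± 0.08 (adjusted p = 1.1e-05, limma). SAMHD1, which breaks down deoxynucleotides and is also an interferon-stimulated gene, had the largest rise in both lines, of 4.25 ± 0.12 in SKBR3 (adjusted p = 6.54e-10) and 2.59 ± 0.10 in MDA-468 (adjusted p = 6.29e-09). The other rise in SKBR3 was that of POLD4, a small subunit of polymerase delta, of 0.37 ± 0.11 (adjusted p = 0.0348). Next to SAMHD1 in MDA-468 came ORC3, a further origin recognition subunit, with a rise of 0.43 ± 0.11 (adjusted p = 0.00993), and the checkpoint adaptor CLSPN, with a rise of 0.40 ± 0.09 (adjusted p = 0.00425, limma). ORC3 also fell in SKBR3, by 0.43 ± 0.14 (adjusted p = 0.0472).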

How the data were processed

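Total RNA of 10 samples was measured on 10 arrays. The deposited values are log2 intensities. Per the submitters' processing notes, the authors used Affymetrix Expression Console and RMA, a method that subtracts background, quantile-normalizes and summarises probes. Tool versions, the annotation build and the arrays normalized jointly were not given in the sources used here. The medians of the arrays were 6.36 to 6.45 in SKBR3 and 6.87 to 6.94 in MDA-468, so changes were taken within a line. The number of arrays limits the precision. Of 33297 probe sets, 19460 had 1 gene symbol in the platform annotation, 1754 several and 12083 none; symbols were updated through a RefSeq gene table, which held 19429. For genes with over 1 probe set the highest mean was kept. A filter at the 30th percentile of the genes' mean (6.03 on the log2 scale) kept 12892 of 18417 genes.

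Cell means of the 4 groups were fitted to all arrays with limma 3.58.1 in R 4.3.3 (6 residual and 4.92 prior degrees of freedom), and p-values were adjusted over all tested genes by Benjamini-Hochberg with a threshold of 0.05. The script was tested on simulated data. All 48 genes were named, with array values for those called; further pathway genes were named for the 3 largest called rises and falls per line. The alternatives were other filters, each line alone, a replicate block, quantile normalization, median centring, averaged probe sets, trended and robust moderation, a 1.5-fold minimum and leaving out each array. Members, lists and tests were chosen with earlier results of these data known. Python 3.11.15 read the RefSeq promoter windows.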

Additional observations from a re-analysis of the deposited data

Results flagged for a closer look

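For each gene here the change in SKBR3 differed from that in MDA-468 in the limma test of the difference (SKBR3 change minus MDA-468 change, log2, adjusted p below 0.05). In the set of 48 these were CDK6 at -1.39, ORC6 at -0.80, ORC2 at -0.55, E2F2 at -0.53, CDC25A at -0.41, CHAF1B at 0.57, CCNE1 at 0.55, GINS4 at 0.53, MCM2 at 0.49, UNG at 0.49 and CDK4 at 0.48. Among the other pathway genes that were named they were ASF1A at -0.87, ORC3 at -0.85, CLSPN at -0.57, POLD4 at 0.56, DCTD at 0.69, E2F5 at 0.88 and SAMHD1 at 1.66. E2F5 had SKBR3 means of 4.26 and 4.32, below the filter level of 6.03, so its value restates the fall in MDA-468. AATF differed by 1.05. Of the 11 genes of the set, only CDK6 held this call under all 19 alternatives run. Without MDA-468 siControl replicate 2, the call was lost for CDK4, CDC25A, E2F2, ORC2, GINS4 and UNG.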

How the results depend on the processing

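No called change of the 48 genes reversed its direction under the alternatives run. Of the 21 MDA-468 changes, 7 (CDK4, CDK6, ORC6, MCM6, GINS4, RFC4 and UNG) held their call under all 20 alternatives, and of the 10 SKBR3 changes, 0 did, RFC3 holding it under 18 and RRM1 under 16. The count of 9 lower genes in SKBR3 became 1 with a 1.5-fold minimum, 4 without a filter and 0 with the line fitted alone, where limma gave 8 at an unadjusted p below 0.05. The count of 1 higher gene in SKBR3 became 0 under the same 3 alternatives, 2 with the filter at the 50th percentile and 3 with trended and robust moderation. With the 1.5-fold minimum, the counts in MDA-468 became 5 lower and 2 higher, and the difference between lines was called for 2 genes. Leaving out each array gave 0 to 18 lower and 0 to 1 higher in SKBR3, 10 to 17 lower and 5 to 9 higher in MDA-468, and 3 to 14 for the difference. Whether replicate numbers pair the samples is not known from the labels. Deviations of same-numbered arrays from their group means correlated at -0.556 in SKBR3 and at -0.491, 0.002 and -0.276 in MDA-468. With 2 arrays a group, the SKBR3 value is a single number whose sign depends on the numbering, so it cannot decide the pairing. With the replicate block, the SKBR3 counts were 1 lower and 0 higher, and the difference was called for 1 gene. The crossed replicate block in SKBR3, chosen after seeing the data, gave 12 lower and 2 higher there. It blocked SKBR3 alone, whereas the replicate block covered both lines, so these fits differ in more than the numbering. The cause of these movements was not tested. Probe sets near background and 2 arrays a group in SKBR3 limit what could be detected.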
